A study of Mus musculus with 8 samples.

Results

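Layer 6b (L6b) neurons of the mouse cerebral cortex were followed here in single-nucleus RNA-seq, an assay that counts the unique molecular identifiers (UMIs, one per captured RNA molecule) of each gene in each nucleus. A barcode was kept as a nucleus when it held 500 or more genes detected and no more than 2% of UMIs from mitochondrial genes. A kept nucleus was taken as L6b when it had at least 3 UMIs summed over Cplx3, Nxph4, Ccn2 and Moxd1, at least 1 UMI of Hs3st4, at most 1 UMI of the interneuron genes Gad1 and Gad2 together, and at most 2 UMIs summed over Slc1a3, Mog, Inpp5d and Flt1, which mark astrocytes, oligodendrocytes, microglia and endothelium. The rule found 262 L6b nuclei among 77185 kept nuclei, or 0.339%, out of 97772 deposited barcodes.

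The nuclei came from flash-frozen cortex, with the medial part removed, of C57BL/6J mice at postnatal day 25. Animals carried either both copies of Chd8 (WT) or 1 functional copy (Chd8+/-, written Chd8het). Chd8 encodes a chromatin remodeller. Each genotype had 4 libraries of individually processed mice, 2 male and 2 female, arranged as litter- and sex-matched pairs. In every group, replicate 1 carried a single index and replicate 2 dual indexes, so the replicate number and the index type cannot be told apart. The labels give no detail of the Chd8 allele, so the level of Chd8 in a 3′ assay does not check them.

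L6b is the deepest layer of the cortex, next to the white matter, and in rodents it contains surviving neurons of the embryonic subplate, the transient zone that guides thalamic axons into the cortex. Adult L6b neurons are mostly excitatory, and they are known for responding to wake-promoting neuromodulators, orexin among them. Their neighbours, the layer 6 corticothalamic (L6CT) neurons, project to the thalamus and express Foxp2 and Syt6. For comparison, L6CT nuclei were chosen with at least 3 UMIs of Foxp2 and Syt6 together, none of the 4 L6b genes and the other criteria unchanged, and numbered 6165.

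Each library held 7799 to 10804 kept nuclei and 69503598 to 98132783 UMIs, and gave 23 to 49 L6b nuclei with 272278 to 595888 UMIs between them. L6b nuclei had a median of 11107 UMIs and 3550 genes, against 6713 UMIs over all kept nuclei and 8667 UMIs in L6CT nuclei. The rule counts UMIs, so depth enters it. Among nuclei that met the other criteria, the median was 8488 UMIs with 0 UMIs of the 4 L6b genes. It was 13104 UMIs with 5 or more. No cell barcode was shared between L6b nuclei of different libraries, and 1 L6b barcode was also kept in another library. Over all kept nuclei, 1389 nuclei had a barcode that was also kept in another library. A doublet caller marked 7 L6b nuclei, or 2.67%, against 5.41% of all kept nuclei. Libraries of the same sex and genotype differed from each other by more than counting noise in all 4 groups.

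The 4 genes that chose the nuclei were unevenly spread among them, which is given as a description because the rule fixed their sum. Ccn2, a secreted matricellular protein, was detected in 72.9% of L6b nuclei and Moxd1, a monooxygenase-related protein, in 71.8%. Cplx3, a complexin of the transmitter release machinery, was detected in 39.7%, and Nxph4, a neurexophilin that is secreted and binds neurexins, in 14.1%. No single gene defined the set: 74 nuclei had UMIs of 1 of the 4 genes, 124 of 2, 58 of 3 and 6 of all 4. The commonest combination was Ccn2 with Moxd1, in 66 nuclei or 25.2%, followed by Moxd1 alone in 42 nuclei.

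Inpp4b (chr8:81342556-82127914, GRCm38), a phosphoinositide phosphatase named as an L6b marker but not used by the rule, was the check on the label. The marker was chosen with earlier results of these data known, so the check is not independent of them. Inpp4b was detected in 242 of 262 L6b nuclei, or 92.4%, against 29.1% of L6CT nuclei and 29.4% of all kept nuclei. After each nucleus was thinned to 3000 UMIs, which 254 L6b nuclei reached, the shares were 90.6% of L6b and 15.9% of L6CT nuclei. The median L6b nucleus held 17 Inpp4b UMIs, with a maximum of 96, and 20 nuclei held none. Just inside the limit, the 97 nuclei with exactly 3 UMIs of the 4 genes had Inpp4b in 90.7% and an Inpp4b level of 1354 CPM (UMIs of the gene scaled to a common total). Just outside it, 207 nuclei with 2 such UMIs that met the other criteria had Inpp4b in 75.4% and 958 CPM. The 99 nuclei with 5 or more had Inpp4b in 96.0% and 2148 CPM, and their Foxp2 level was 71.7 CPM, against 181 CPM just outside the limit. L6b nuclei were not free of corticothalamic genes: 48 of them, or 18.3%, had at least 3 UMIs of Foxp2 and Syt6 together, and 153 had none.

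Markers of other cell types in L6b nuclei were compared with L6CT nuclei. Summed over each list per library, 8 interneuron genes ranged from 110 to 594 CPM in WT and from 74.3 to 456 CPM in Chd8het L6b nuclei, against 153 to 285 CPM in L6CT nuclei and 1598 to 1962 CPM over all kept nuclei of WT. Of these 8, Erbb4 and Dlx6os1 were called higher than in L6CT at log2 0.79 and 1.22, each higher in 4 of 8 libraries, with 13.5 to 521 and 0 to 25.2 CPM among L6b libraries. Adarb2 and Lamp5 were called lower at -1.75 and -1.11, each in 8 of 8 libraries, and the other 4 were not called. Their part in the results below was not tested. Vascular genes lay between 0 and 7.57 CPM in WT and between 0 and 19.7 CPM in Chd8het L6b nuclei, with 1 of 5 at 0 in every library. Oligodendrocyte genes lay between 132 and 298 CPM in WT and between 99.0 and 217 CPM in Chd8het, against 137 to 211 CPM in L6CT nuclei of WT. Astrocyte genes lay between 834 and 1400 CPM in WT and between 1072 and 1188 CPM in Chd8het L6b nuclei, against 669 to 843 CPM in L6CT nuclei of WT. Of 4 astrocyte genes tested, the glutamate transporter Slc1a2 was called higher in L6b at 0.48 (SE 0.07), in 8 of 8 libraries, and its part in the results was not tested. None of the tested oligodendrocyte (4), precursor (3), microglial (3), vascular (1) or fibroblast (3) genes was called between L6b and L6CT nuclei.

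No difference between genotypes was detected in the share of L6b nuclei. The share of kept nuclei was 0.343% in WT male 1, 0.333% in WT male 2, 0.283% in WT female 1 and 0.404% in WT female 2. In Chd8het it was 0.278% in male 1, 0.492% in male 2, 0.226% in female 1 and 0.368% in female 2. The highest and the lowest value were both Chd8het, and the WT libraries lay between them. The mean was 0.341% ± 0.0496 (SD, n = 4) in WT and 0.341% ± 0.117 (SD, n = 4) in Chd8het, with p = 1 in a 2-sided exact permutation test whose smallest possible p is 0.0286. The share was higher in Chd8het in 1 of 4 pairs, the dual-indexed male pair, where the 95% Wilson interval of the Chd8het library was 0.373 to 0.650%. Within index type, Chd8het minus WT was -0.0610 percentage points among single-indexed and 0.0619 among dual-indexed libraries.

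The same held against the neighbouring L6CT nuclei. L6b nuclei were 4.08% ± 0.443 (SD, n = 4) of the L6b and L6CT nuclei in WT and 4.16% ± 1.72 (SD, n = 4) in Chd8het (2-sided exact permutation p = 1). The Chd8het male 2 library was the highest at 6.56%. The median UMIs per L6b nucleus averaged 10791 ± 2544 in WT and 10838 ± 941 in Chd8het (SD, n = 4 each, 2-sided exact permutation p = 0.943). All 3 comparisons had a Benjamini-Hochberg adjusted p of 1.

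**Figure D1:**
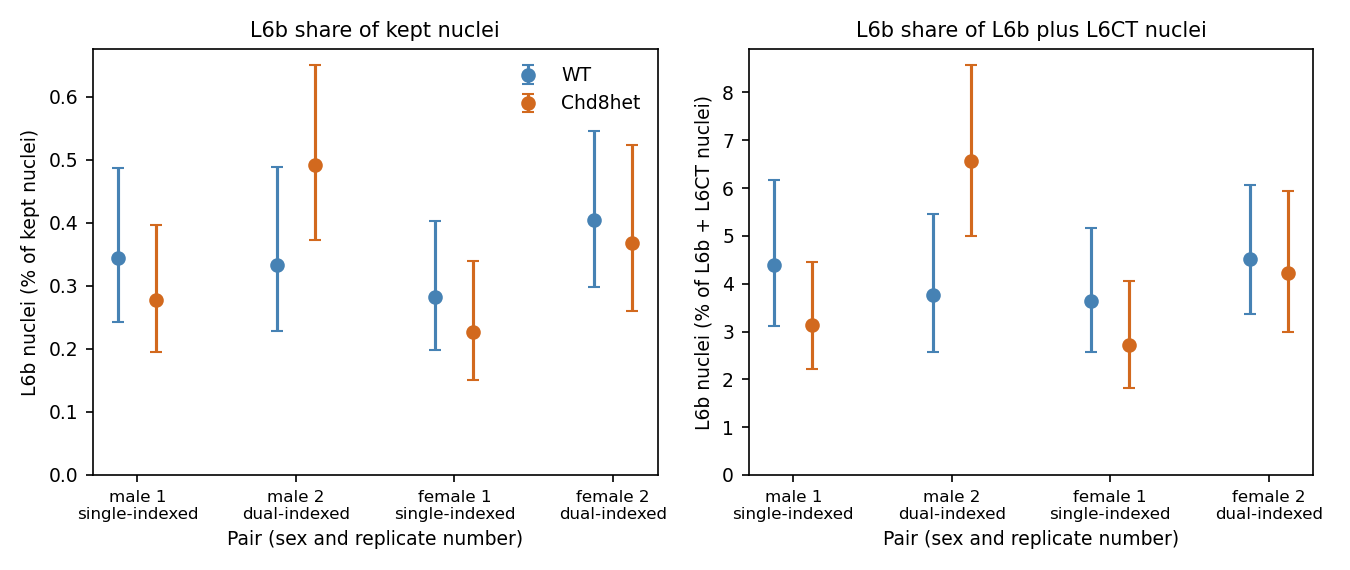
Share of L6b nuclei per library, as a percentage of kept nuclei (left) and of L6b plus L6CT nuclei (right), for the 4 pairs on the x axis, with points for WT and Chd8het libraries and bars for 95% Wilson intervals, which cover counting error only. The Chd8het library lies above its WT partner only in the dual-indexed male pair, 0.492% against 0.333% of kept nuclei.

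The same values were compared between index types, and none of the 3 comparisons passed after adjustment. The share of kept nuclei was 0.399% ± 0.0682 (SD, n = 4) in dual-indexed and 0.282% ± 0.0479 (SD, n = 4) in single-indexed libraries (2-sided exact permutation p = 0.0571, adjusted p = 0.0857 over 3 comparisons). As a share of L6b plus L6CT nuclei, L6b was 4.77% ± 1.23 in dual-indexed and 3.48% ± 0.721 in single-indexed libraries (SD, n = 4 each, 2-sided exact permutation p = 0.114, adjusted p = 0.114). The median UMIs per L6b nucleus of dual-indexed libraries averaged 12269 ± 871 against 9360 ± 980 (SD, n = 4 each). The 2 groups did not overlap, and the 2-sided exact permutation p of 0.0286 was the smallest this design allows (adjusted p = 0.0857). Within the dual-indexed libraries, WT male 2 had the highest median (13207 UMIs) and the lowest share (0.333%), and Chd8het male 2 the lowest median (11256 UMIs) and the highest share (0.492%). The part of depth in these shares was not tested.

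The first comparison asked how L6b differs from L6CT in genes that the rule did not use. UMIs were summed per library and cell type, and edgeR's quasi-likelihood test was run with the library as a block. A gene was called at a Benjamini-Hochberg adjusted p below 0.05, and differences are L6b minus L6CT in log2, with their standard errors (SE). Of 15086 genes tested, 2444 (16.2%) were called, 1065 higher in L6b (7.06%) and 1379 lower (9.14%), and the median over all genes was -0.05. The higher share of calls was 43.6%. It was 53.5% with DESeq2's size factors, 57.0% with DESeq2 and 50.5% without the library block. It was 6.66% when nuclei were thinned to 3000 UMIs before the rule was applied, which left 43 L6b nuclei and a median over all genes of -0.81. Both sets were chosen on their own counts, so the calls describe these 2 sets of nuclei.

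Genes known from subplate and L6b neurons, but outside the rule, were mostly higher in L6b. The list was chosen with earlier results of these data known, so it is not independent evidence for the label. Of 17 listed, 16 were tested: 12 were called higher, 2 lower and 2 not called, with a median log2 difference of 2.11 against -0.05 over all genes. CPM in the comparison with L6CT are scaled jointly over the L6b and L6CT sums. Inpp4b had 1329 CPM in the lowest, a median of 1662 and 2429 CPM in the highest L6b library, and 52.3 to 137 CPM in L6CT. The 2 sets of libraries were far apart, and the difference was 4.25 (SE 0.10, adjusted p = 1.25e-44). Kcnab1, a beta subunit of voltage-gated potassium channels, ranged from 1023 to 1745 CPM around a median of 1289 in L6b, and from 62.5 to 141 CPM in L6CT, a difference of 3.76 (SE 0.09). It was detected in 96.6% of L6b and 32.3% of L6CT nuclei.

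Svil, which encodes a membrane-associated actin- and myosin-binding protein, had the largest difference of the list, 4.98 (SE 0.10, adjusted p = 6.37e-48). Its L6b level was uneven among libraries, from 214 to 1386 CPM, the latter in WT male 2, around a median of 390, while L6CT libraries had 6.74 to 32.3 CPM. Svil was detected in 76.7% of L6b and 7.19% of L6CT nuclei. Lpar1, a lysophosphatidic acid receptor, was higher by 4.43 (SE 0.16), with 64.3, 119 and 137 CPM as the lowest, median and highest L6b values and 3.37 to 7.30 CPM in L6CT. Tmem163, a zinc transporter of vesicles, was higher by 3.97 (SE 0.10), with 15.8 to 54.9 CPM in L6CT and 328 to 690 CPM in L6b. No library of one type overlapped the other for these 3 genes.

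The remaining members were called at smaller sizes. Nr4a2 (Nurr1), an orphan nuclear receptor and a standard subplate marker, had 22.8 to 65.0 CPM around a median of 49.0 in L6b and 2.08 to 19.1 CPM in L6CT, a difference of 3.05 (SE 0.24). Cdh10, a type II cadherin, had a difference of 2.19 (SE 0.08), and Unc5c, a netrin receptor of axon guidance, 1.44 (SE 0.08). Nxph3, another neurexophilin, had a difference of 1.12, Gabra5, a GABA-A receptor subunit, 0.76 and Pls3, an actin-bundling protein, 0.70. Each of these 6 genes was higher in L6b in 8 of 8 libraries. The 2 lower members were Zfpm2, a zinc finger cofactor, at -0.45 (SE 0.07, lower in 8 of 8 libraries) and the synaptic vesicle gene Sv2b at -0.21 (SE 0.08, adjusted p = 0.0497, lower in 6 of 8). Trh, thyrotropin-releasing hormone, with 0 to 3.42 CPM in L6b, and Nfe2l3, with 0 to 33.1 CPM, were not called, and Drd1 is given below with the receptors.

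Genes reported for subtypes of L6b were mixed. Of 10 listed, 7 were tested and 3 were called higher, namely Ror1, a Wnt receptor, at 3.40 (SE 0.21), the relaxin receptor Rxfp1 at 1.37 (SE 0.13) and Nxph1 at 0.48 (SE 0.14). Ror1 ranged from 20.2 to 89.2 CPM in L6b and from 2.63 to 9.53 CPM in L6CT. Nxph1 ranged widely, from 36.2 to 325 CPM in L6b, and overlapped L6CT at 99.6 to 134 CPM. Spon1, a secreted matrix protein, had 33.6 to 124 CPM in L6b and 91.1 to 194 CPM in L6CT, a difference of -1.08 (SE 0.13). Rprm was also lower at -2.35 (SE 0.49), on few molecules, 6 UMIs in L6b, all of them in Chd8het, against 621 in L6CT.

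Corticothalamic genes outside the rule went in both directions. Of 6 tested, Crym, which binds thyroid hormone, had 0, 2.01 and 16.8 CPM as its lowest, median and highest L6b values against 42.2 to 64.6 CPM in L6CT, a difference of -3.46 (SE 0.28). Fezf2, a transcription factor of corticofugal neurons, was lower at -0.85 (SE 0.28), and Rprm is given above. Tle4, a corepressor common to deep-layer neurons, was higher at 0.30 (SE 0.07, adjusted p = 0.000798, 8 of 8 libraries). Ntsr1, the neurotensin receptor whose Cre line marks corticothalamic cells, was higher at 0.93 (SE 0.30, adjusted p = 0.0185), with 5.56 to 20.2 CPM in L6b and 4.31 to 9.82 CPM in L6CT. The Ntsr1 ranges overlapped and L6b was higher in 5 of 8 libraries. Tbr1, the layer 6 T-box factor, had -0.40 (SE 0.17, adjusted p = 0.117).

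**Figure D2:**
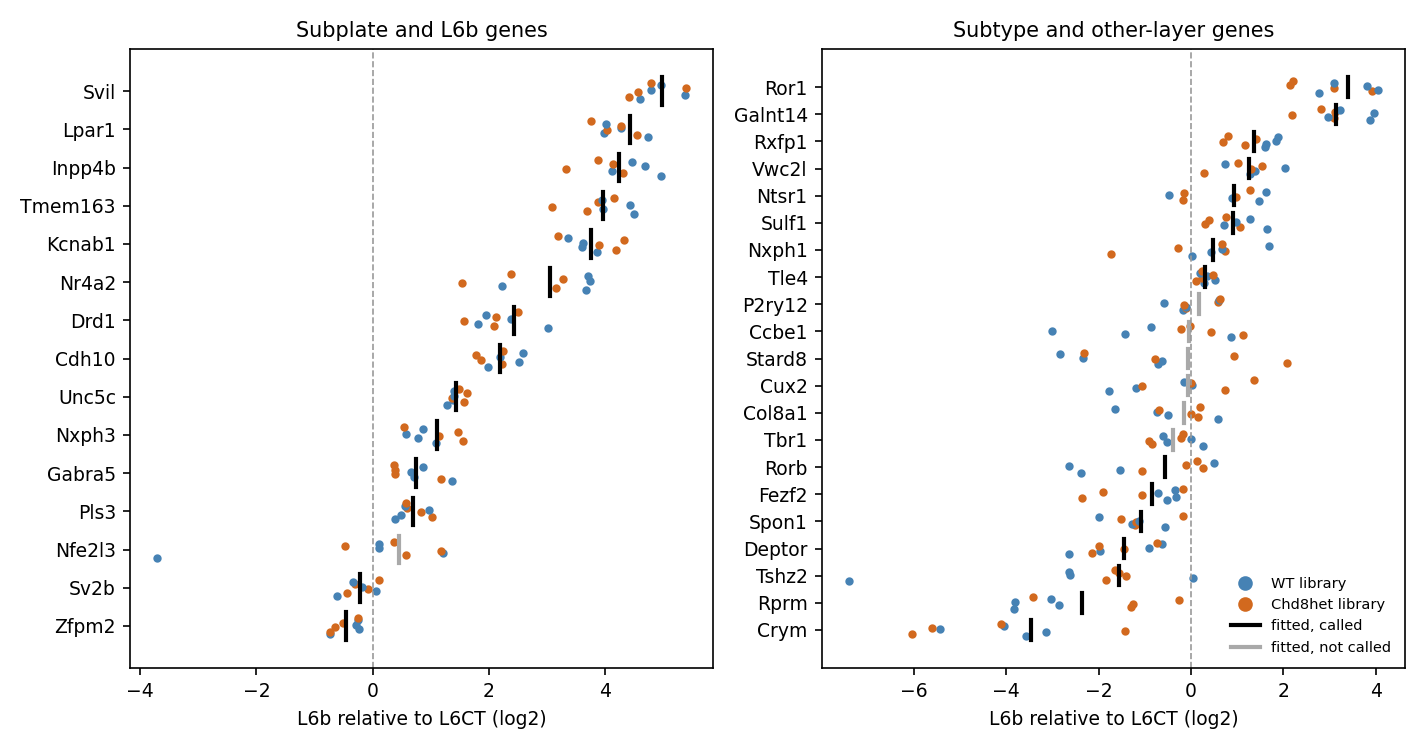
Difference between L6b and L6CT nuclei (x axis, log2 of L6b over L6CT, each CPM plus 1) for subplate and L6b genes (left) and for subtype and other-layer genes (right). Points are the 8 libraries by genotype and bars the fitted difference, black where called. Svil, Lpar1 and Inpp4b lie near 4 or above in the fit, and Crym is the lowest at -3.46.

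Across 16 deep-layer transcription factors, 15 were tested, 5 were called higher, 7 lower and 3 not, with a median of -0.40. Foxp1, a forkhead factor, had 239 to 360 CPM in L6b and 753 to 859 CPM in L6CT, with no overlap and a difference of -1.40 (SE 0.08). Bcl11b (Ctip2), a factor of subcerebral projection neurons, had -0.93 (SE 0.10), the corticofugal factor Sox5 -0.54 (SE 0.08) and Etv1, an ETS factor, -1.50 (SE 0.21). Nfia at 0.23 (SE 0.08) and Nfib at 0.25 (SE 0.07) were the smallest called increases of the list.

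Neuromodulator receptors were considered because of the known responses of L6b. Of 22 listed, 20 were tested: 7 were called higher in L6b, 4 lower and 9 not called, with a median of -0.14. Htr2a, a serotonin receptor, had 51.3, 99.2 and 117 CPM as its lowest, median and highest L6b values and 13.0 to 23.9 CPM in L6CT. The ranges were separate, the difference was 2.37 (SE 0.14), and Htr2a was detected in 48.9% of L6b and 10.7% of L6CT nuclei. Drd1, the D1 dopamine receptor, had 11.8 to 31.1 CPM around a median of 24.1 in L6b and 2.49 to 5.39 CPM in L6CT, a difference of 2.43 (SE 0.27). Drd1 was detected in 22.9% of L6b and 3.67% of L6CT nuclei.

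Other amine and acetylcholine receptors split as well. Adra2a, an alpha-2 adrenergic receptor, was higher at 2.20 (SE 0.48) from low levels, 1.94 to 13.7 CPM in L6b. The muscarinic receptors Chrm2 and Chrm3 were higher at 1.52 (SE 0.12) and 0.57 (SE 0.07), each in 8 of 8 libraries. Adra1a, an alpha-1 adrenergic receptor, was lower at -1.89 (SE 0.22), Htr2c at -1.55 (SE 0.25) and Htr1f at -0.88 (SE 0.08), each in 8 of 8 libraries. Chrna5, a nicotinic subunit, was called lower on few molecules, 5 UMIs in L6b against 397 in L6CT, a ratio of pooled CPM of 0.243 with a counting interval of 0.0785 to 0.572.

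The orexin receptors were not called between the types. Hcrtr2 had 17.1, 43.5 and 116 CPM as its lowest, median and highest L6b values and 15.5 to 83.3 CPM in L6CT. The ranges overlapped, L6b was higher in 4 of 8 libraries, and the difference was -0.11 (SE 0.15, adjusted p = 0.732). It was detected in 17.9% of L6b and 22.9% of L6CT nuclei. Hcrtr1 had at most 3.11 CPM in any L6b library.

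**Figure D3:**
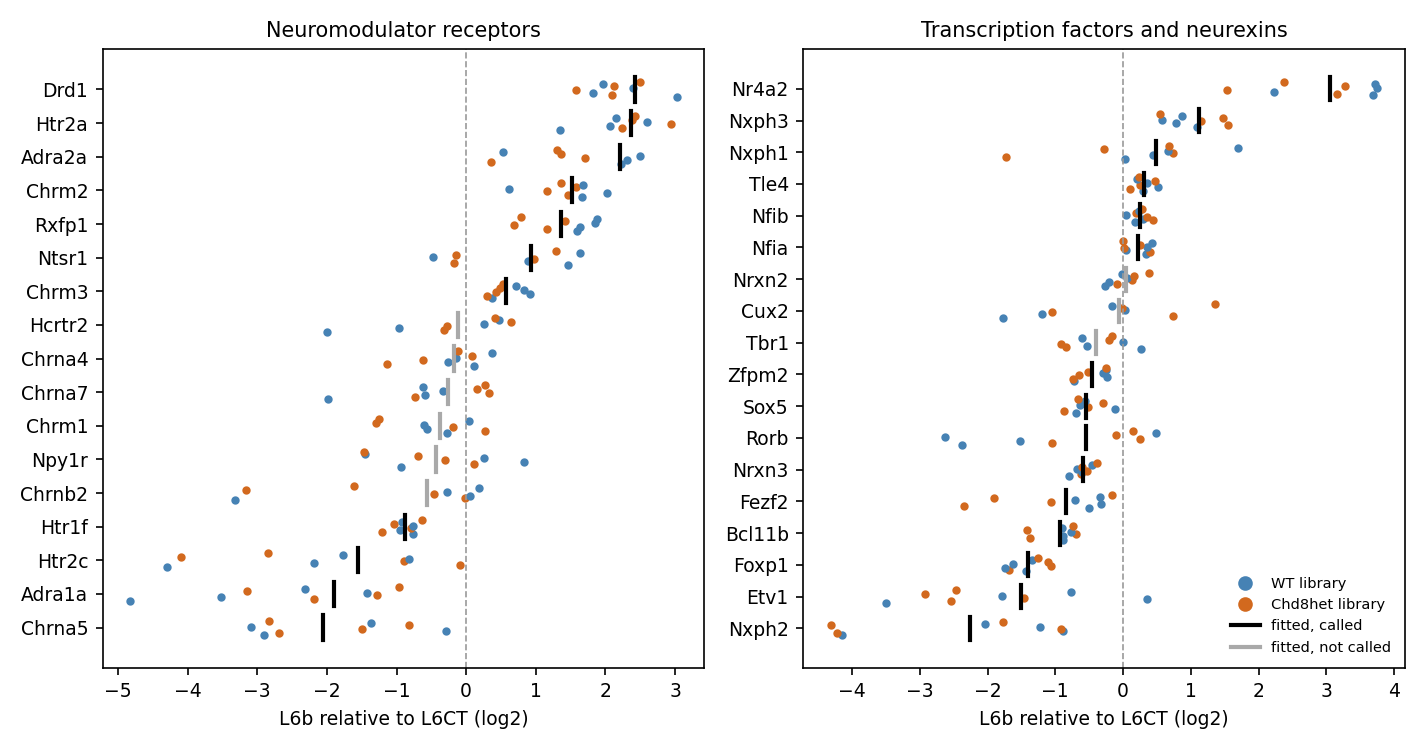
Difference between L6b and L6CT nuclei (x axis, log2 of L6b over L6CT, each CPM plus 1) for neuromodulator receptors (left) and for deep-layer transcription factors with neurexophilins and neurexins (right). Points are the 8 libraries by genotype and bars the fitted difference, black where called; not every member of the lists on the right is drawn. Drd1 and Htr2a lead the receptors at 2.43 and 2.37, and Hcrtr2 straddles 0.

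Synaptic families related to the genes of the rule were also examined. Nrxn3, a presynaptic neurexin, was lower at -0.59 (SE 0.06) in 8 of 8 libraries. Cplx2, a paralog of Cplx3, was lower at -1.33 (SE 0.16), with 10.1 to 52.9 CPM in L6b and 55.9 to 83.9 CPM in L6CT. Of 9 release genes tested outside the rule, Syt1 was called higher at 0.22, Cplx2, Snap25 (-0.20) and Unc13a (-0.55) lower, and 5 were not called. Among phosphoinositide phosphatases, Inpp5a was higher at 1.32 (SE 0.11) and Inpp4a at 0.27 (SE 0.10, adjusted p = 0.0432) beside Inpp4b, and 3 of 6 were not called.

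Genes of other excitatory types gave a mixed pattern. Galnt14 and Sulf1, from a list of intratelencephalic genes, were higher at 3.14 (SE 0.12) and 0.91 (SE 0.10), while Rorb and Deptor were lower at -0.55 (SE 0.17) and -1.46 (SE 0.23). The other 4 genes of that list were not called. Of near-projecting genes, Vwc2l was higher at 1.25 (SE 0.11) and Tshz2 lower at -1.55 (SE 0.17). Tshz2 ranged from 0 to 337 CPM among L6b libraries. Synpr, a synaptic vesicle protein used for the claustrum, was called at 1.19 (SE 0.23), but L6b was higher in 4 of 8 libraries. The Synpr difference was -0.56 (adjusted p = 0.185) and not called once L6b nuclei over 20000 UMIs or under 5 Inpp4b UMIs were left out.

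The genes with the largest increases were led by long noncoding RNAs of 1 stretch of chromosome 8. The 12 named were the called genes of largest fold that were higher in 8 of 8 libraries with at least 50 CPM in L6b, and 6 of them, Gm2516, Gm45321, C130073E24Rik, Gm45323, 4930555F03Rik and Gm45341, lie within chr8:49370886-50916997 (GRCm38), which was noticed after the values were seen. GENCODE M21 places 14 genes there, 8 of them lincRNAs and 0 protein-coding. C130073E24Rik had 243, 344 and 508 CPM as its lowest, median and highest L6b values and 1.16 to 23.2 CPM in L6CT, a difference of 5.66 (SE 0.14). Gm2516 had 70.6 to 146 CPM against 0.242 to 7.11 CPM, a difference of 5.97 (SE 0.22), and Gm45341 a difference of 5.22 (SE 0.27). These last 2 overlap on opposite strands, and their reads cannot be told apart because the sources used here do not say whether the counting used strand.

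The nearest protein-coding genes on either side moved less. Tenm3, a teneurin that lies 0.527 Mb to the left, was higher at 0.73 (adjusted p = 7.68e-12), and Aga, 2.59 Mb to the right, had 0.20 (adjusted p = 0.902). The other named increases were Svil, Lpar1, Gm41414 at 4.88, Fbxl7, an F-box protein, at 4.78, Nhs, an actin regulator, at 4.40, and Adgrg6, an adhesion G protein-coupled receptor, at 4.26. Adgrg6 ranged from 151 to 246 CPM in L6b and from 6.64 to 17.3 CPM in L6CT.

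Among the 12 named decreases, Ephb1, an ephrin receptor kinase, had 6.84, 31.6 and 60.2 CPM as its lowest, median and highest L6b values and 232 to 635 CPM in L6CT, a difference of -3.63 (SE 0.14). Meis2, a homeobox transcription factor, had 3.42 to 87.5 CPM around a median of 20.9 in L6b and 312 to 448 CPM in L6CT, a difference of -3.49. Iqgap2, a cytoskeletal scaffold, had -3.02, the carboxypeptidase Cpa6 -2.78, Abi3bp -2.77, the cadherin Cdh9 -2.48 and the calsyntenin Clstn2 -2.36. Gm10635 was nearly absent from L6b, with 3 UMIs against 4433 in L6CT and a ratio of pooled CPM of 0.0131 (counting interval 0.00269 to 0.0382). All 24 named genes kept their direction and their call in all 432 combinations of gene and alternative processing. They were chosen as called genes of largest fold with the same direction in 8 of 8 libraries, so their choice made this outcome likely.

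The second comparison asked what 1 functional copy of Chd8 changed within L6b nuclei. UMIs of L6b nuclei were summed per library and tested with edgeR's quasi-likelihood test with sex and genotype in the model, and differences are Chd8het minus WT in log2. CPM within this comparison are scaled over the L6b sums alone, so a gene's CPM can differ from those given against L6CT. Of 5364 genes tested, 5 were called (0.0932%), all higher in Chd8het and 0 lower, with 234 genes at an unadjusted p under 0.05. They were Nell1, a secreted glycoprotein, Ptprk, a receptor tyrosine phosphatase, Slc9a9, an endosomal sodium/proton exchanger, Lingo2, a leucine-rich repeat membrane protein, and Edil3, a secreted integrin ligand.

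For Nell1, the WT libraries male 1, male 2, female 1 and female 2 stood at 19.7, 17.4, 27.8 and 45.6 CPM, and their Chd8het partners, listed likewise, at 114, 82.7, 151 and 144 CPM. The genotypes did not overlap, and the difference was 2.10 (SE 0.25, adjusted p = 0.00263). Ptprk had 70.8, 28.9, 38.2 and 91.2 CPM in WT and 189, 165, 185 and 254 CPM in Chd8het, a difference of 1.77 (SE 0.27, adjusted p = 0.0210).

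Slc9a9 had 35.4, 46.3, 20.9 and 35.3 CPM in WT and 108, 86.3, 148 and 126 CPM in Chd8het, again without overlap, and a difference of 1.71 (SE 0.26, adjusted p = 0.0210). Lingo2 had 318, 648, 303 and 550 CPM in WT and 1181, 1611, 844 and 1218 CPM in Chd8het. Its difference was 1.39 (SE 0.23, adjusted p = 0.0404). Edil3 had 82.6, 57.9, 76.5 and 99.5 CPM in WT and 204, 151, 212 and 169 CPM in Chd8het, a difference of 1.20 (SE 0.21, adjusted p = 0.0406). Each of the 5 was higher in Chd8het in 4 of 4 pairs and without overlap between genotypes. Over all 5364 genes, 153 (2.85%) had groups that did not overlap, in either direction.

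The 5 genes lie on 5 chromosomes (GRCm38). Nell1 spans chr7:49974864-50866608, Ptprk chr10:28074820-28597397 and Slc9a9 chr9:94669909-95230445. Lingo2 spans chr4:35706647-36951747 and Edil3 chr13:88821472-89323223. None of them was used by the rule.

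Much of the signal of these 5 genes in Chd8het came from a few nuclei with many UMIs. Of the 262 L6b nuclei, 26 held more than 20000 UMIs, 11 of WT and 15 of Chd8het, and 2 of the 26 were marked as doublets. They held 18.5% of all L6b UMIs in WT and 24.8% in Chd8het. The 5 genes together had 940 UMIs in WT, 22.9% of them in such nuclei, and 3003 UMIs in Chd8het, 50.5% of them in such nuclei. No WT nucleus and 9 Chd8het nuclei had at least 100 UMIs of the 5 genes, and those 9 held 1548 of the 3003. Pooled, the 5 genes summed to 594 CPM in WT and 1146 CPM in Chd8het L6b nuclei of at most 20000 UMIs. In L6b nuclei over 20000 UMIs they summed to 777 and 3549 CPM. L6CT nuclei had 1412 CPM and all kept nuclei 4270 CPM.

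Without the nuclei over 20000 UMIs, edgeR called 0 of 4359 genes, with 144 at an unadjusted p under 0.05. The 5 differences then were 1.11 for Nell1, 0.70 for Ptprk, 1.34 for Slc9a9, 0.70 for Lingo2 and 0.78 for Edil3, and each kept its sign. When nuclei under 5 Inpp4b UMIs were left out too, Ptprk was at 0.29, Slc9a9 at 1.51, Lingo2 at 0.66 and Edil3 at 0.79, none of them called, and Nell1 did not pass the count filter. Without only the nuclei over 20000 UMIs, Ptprk was lower in Chd8het in 2 of 4 pairs, at 59.0 against 79.7 CPM in male 1 and 17.8 against 43.7 CPM in female 1. Nell1 was lower in 1 of 4 pairs, at 11.9 against 35.0 CPM in female 1. With the pairs as a block, the same set also gave 0 calls and 254 genes at an unadjusted p under 0.05. Leaving out WT female 1 or Chd8het female 2 from the full set left 1 call, leaving out WT male 1 left 2, and leaving out WT female 2 or Chd8het male 2 left 3, while leaving out Chd8het female 1 gave 8.

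**Figure D4:**
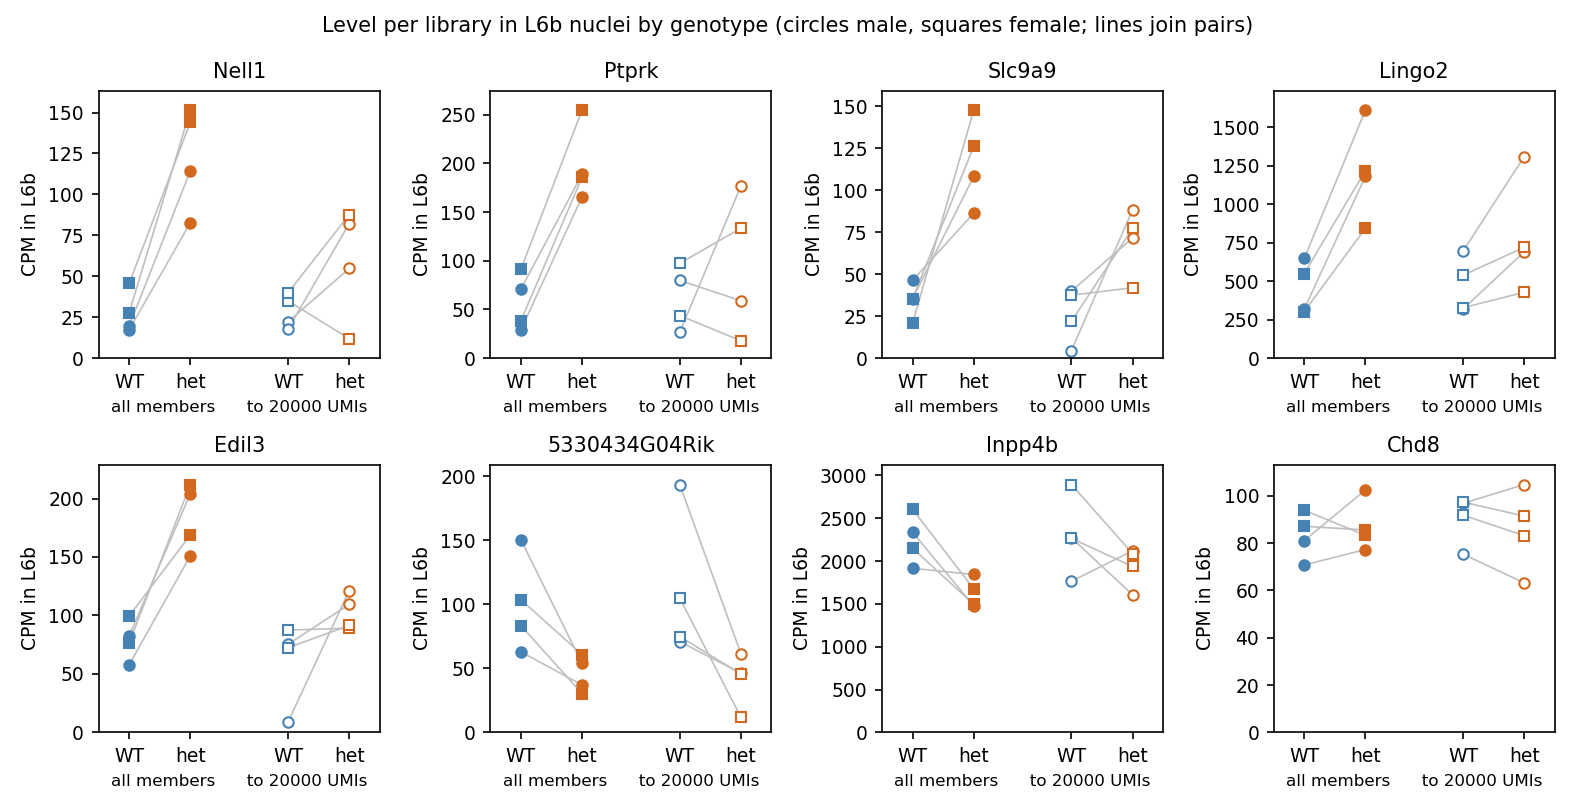
Level in L6b nuclei (y axis, CPM) of the 5 called genes and of 5330434G04Rik, Inpp4b and Chd8, with 1 point per library, circles for males, squares for females and lines joining pairs. Filled points use all L6b nuclei and open points those with at most 20000 UMIs. Filled WT and Chd8het points are separate for the 5 called genes, and the open points overlap for Nell1, Ptprk and Lingo2.

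The nuclei rich in these 5 genes differed from the other L6b nuclei in the genes of the identity lists as well, which is a description because they were chosen on the 5 genes. There were 20 nuclei with at least 50 UMIs of the 5 genes, 16 of Chd8het and 4 of WT, with 7 in Chd8het male 2, 4 in Chd8het female 2, 3 in Chd8het male 1, 2 each in Chd8het female 1, WT male 2 and WT female 2, and none in the other libraries. Pooled over these 20 nuclei, Inpp4b was at 765 CPM, against 1949 CPM in the other 242. The 17 subplate and L6b genes summed to 4543 CPM against 7983 CPM, and the 4 genes of the rule to 176 against 435 CPM. Rorb, a layer 4 factor, was at 276 against 24.0 CPM, and Cux2, an upper-layer factor, at 104 against 11.995 CPM. Of other intratelencephalic genes, Sulf1 was lower at 61.6 against 214, Galnt14 at 153 against 293 and Deptor, low in both, at 4.25 against 11.995 CPM. Sulf1 and Galnt14 were themselves called higher in L6b than in L6CT, like most of the subplate and L6b genes. The 8 genes of the intratelencephalic list summed to 686 against 564 CPM. The 5 near-projecting genes summed to 410 against 207 CPM. The 8 corticothalamic genes, 2 of which the choice of L6CT nuclei used, summed to 450.5 against 959 CPM, with Tle4 at 342 against 776 CPM. The median UMIs per nucleus were 21697 and 10508. The part of these differences in the genotype calls was not tested.

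**Figure D5:**
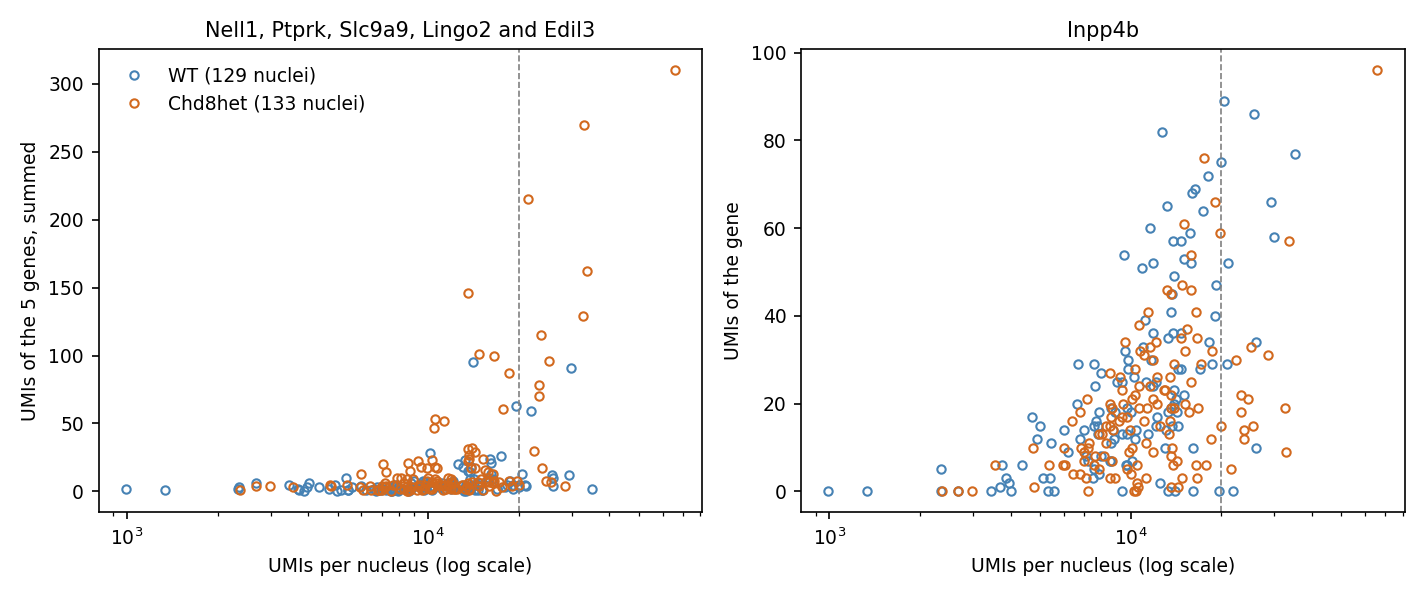
UMIs of Nell1, Ptprk, Slc9a9, Lingo2 and Edil3 summed (left, y axis) and UMIs of Inpp4b (right, y axis) in each L6b nucleus against its total UMIs (x axis, log scale), with 129 WT and 133 Chd8het nuclei and a dashed line at 20000 UMIs. All 9 nuclei with at least 100 UMIs of the 5 genes are Chd8het, and most of them lie to the right of the line.

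With the pairs (same sex and replicate number) as a block, 23 of 5920 genes were called (0.389%). Of these, 18 were higher (0.304%) and 5 lower (0.0845%) in Chd8het, and all 5 genes above were included. The count filter follows the model, so more genes passed it than the 5364 tested without the block. Pld5 and Meis2, called higher with the block, were not tested without it. In Chd8het, Pld5 had 51 of 83 UMIs in male 2 and 29 in female 2, and Meis2 52 and 30 of 96. Among the 18 was Tafa1, a secreted chemokine-like protein, with 59.0, 272, 69.5 and 93.3 CPM in WT and 250, 881, 303 and 709 CPM in Chd8het, in the order used for Nell1. WT male 2 was above Chd8het male 1, so the genotypes overlapped, but Chd8het was higher in 4 of 4 pairs, with a blocked difference of 2.20 (adjusted p = 2.86e-06). Kctd16, an auxiliary subunit of GABA-B receptors, was at 1.55, Slit3, an axon guidance ligand, at 1.15, and Dgkb, a diacylglycerol kinase, at 1.10 in the same fit. Kcnq5, a potassium channel, was at 1.01, Dab1, the adaptor of reelin signalling, at 0.92, and Lrrc4c, a netrin-G ligand, at 0.82. None of these 7 was called without the nuclei over 20000 UMIs, with or without the block. The unblocked differences there were 1.13 for Tafa1, 0.30 for Kctd16, 0.25 for Slit3, 0.43 for Dgkb, 0.51 for Kcnq5, 0.59 for Dab1 and 0.58 for Lrrc4c. When nuclei under 5 Inpp4b UMIs were left out too, they were 0.44 for Tafa1, 0.54 for Kctd16, 0.17 for Slit3, 0.21 for Dgkb, 0.02 for Kcnq5, 0.52 for Dab1 and 0.37 for Lrrc4c, and none was called. In Chd8het, 3 nuclei held 54.1% of the Tafa1 UMIs. All 18 had a higher mean in L6CT than in L6b nuclei of WT, against 50.01% of all genes. WT libraries enter both values. Pooled, the 18 genes summed to 2541 CPM in WT L6b nuclei of at most 20000 UMIs. They had 8952 CPM in L6CT and 17285.5 CPM over all kept nuclei. The replicate number also carries the index type, and replacing the pairs by index type gave 15 calls (0.253%), 13 higher (0.22%) and 2 lower (0.0338%), all within the 23.

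The 5 genes lower with the block were Ttn, Trabd2b, Sdk1, Synpr and 5330434G04Rik. Ttn, the titin gene, had 134, 69.5, 31.3 and 37.3 CPM in WT and 27.8, 17.97, 26.5 and 11.3 CPM in Chd8het, a blocked difference of -1.70 (adjusted p = 0.0149). Its highest Chd8het value was just below its lowest WT value, and its adjusted p was 0.170 without the block. Ttn had 85 UMIs in 15 nuclei of WT and 31 in 14 nuclei of Chd8het, and 3 nuclei held 58.8% and 54.8% of them. For Synpr, 3 nuclei held 67.6% of 111 UMIs in WT and 43.6% of 39 in Chd8het. Trabd2b, a membrane metalloprotease that cleaves Wnt proteins, had 220, 232, 41.7 and 166 CPM in WT and 105, 98.9, 37.8 and 58.5 CPM in Chd8het, a blocked difference of -1.14 (adjusted p = 0.00875). The genotypes overlapped because WT female 1 was low, and Trabd2b was at -1.44 without the nuclei over 20000 UMIs, where it was not called. 5330434G04Rik, a lincRNA at chrX:105348282-105391776, had 62.9, 150.5, 83.5 and 104 CPM in WT and 37.1, 53.9, 30.3 and 60.8 CPM in Chd8het. Its ranges were separate, its blocked difference was -1.12 (adjusted p = 0.0316), and it was -1.10 (adjusted p = 0.466) without the block. This lincRNA was put on a list because other cell classes of these same libraries showed it lower, so it is not independent evidence. Of the 14 genes on that list, 9 were tested without the block, 3 positive and 6 negative, and 0 were called.

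Inpp4b was among the 8 lower genes of smallest p but was not called. On the scale of the L6b sums alone, it had 1915, 2335, 2149 and 2603 CPM in WT and 1842, 1476, 1495 and 1675 CPM in Chd8het. Every Chd8het library was below every WT library, and the difference was -0.47 (SE 0.13, unadjusted p = 0.00334, adjusted p = 0.647), or an adjusted p of 0.129 with the pairs as a block. Without the nuclei over 20000 UMIs it was -0.24. The ranges then overlapped, at 1763, 2271, 2264 and 2892 CPM in WT and 2118, 1606, 1936 and 2087 CPM in Chd8het, and Chd8het was the higher in male 1. Sv2c, a synaptic vesicle protein, was at -0.87 (SE 0.22, adjusted p = 0.359) and Ccdc186 at -1.11 (SE 0.32, adjusted p = 0.647), both lower in 4 of 4 pairs. Gm49878, at -1.62 (SE 0.44, adjusted p = 0.529), is annotated as antisense and overlaps Galnt14, so the 2 cannot be told apart.

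Chd8 itself (chr14:52198151-52257780) was not called. It had 70.8, 81.0, 93.9 and 87.1 CPM in WT and 77.3, 102.5, 83.3 and 85.6 CPM in Chd8het, with overlapping ranges. The difference was 0.08 (SE 0.20, unadjusted p = 0.691), on 115 UMIs in WT and 142 in Chd8het. The sign was the opposite without the nuclei over 20000 UMIs, at -0.04. Of 9 genes of the CHD family, 8 were tested, 4 had positive and 4 negative differences, with a median of -0.02, and none was called.

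No list held a gene called between genotypes without the block. Of 17 subplate and L6b genes, 13 were tested, 3 with positive and 10 with negative differences and a median of -0.25, against -0.002 over all genes. Pooled, the 17 genes summed to 7932 CPM in WT and 7327 CPM in Chd8het nuclei of at most 20000 UMIs. In nuclei over 20000 UMIs they summed to 9086 and 5617 CPM. The part of those nuclei in the median was not tested. Of neuromodulator receptors, 9 were tested, 2 positive and 7 negative, with a median of -0.15. Of deep-layer transcription factors, 13 were tested, 5 positive and 8 negative, with a median of -0.11. In L6CT nuclei, edgeR called 0 of 14930 genes between genotypes, with 284 at an unadjusted p under 0.05.

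Whether the genotype difference itself differed between L6b and L6CT was tested with an interaction term across both types. It was called for 49 of 15086 genes (0.325%), 38 with a more positive (0.252%) and 11 with a more negative difference in L6b (0.0729%). This fit used 1 estimate of spread per gene for both types, although an L6b sum held far fewer nuclei than an L6CT sum. For Tafa1 the SE of the interaction term was 0.20, against 0.44 for the genotype difference in L6b alone. For Kctd16 they were 0.17 and 0.32. The p-values of the interaction may therefore be too small, which was not tested. The 5 genes called within L6b were all among the 38, with interaction terms of 1.95 for Nell1, 1.74 for Ptprk, 1.53 for Slc9a9, 1.22 for Lingo2 and 1.19 for Edil3. Both tests use the same L6b sums, so this overlap is not independent evidence. None of these 5 interaction calls was left without the L6b nuclei over 20000 UMIs. The terms then were 0.98 for Nell1 (adjusted p = 0.587), 0.69 for Ptprk (0.835) and 1.21 for Slc9a9 (0.141). For Lingo2 the term was 0.49 (0.587) and for Edil3 0.83 (0.393). This limit was applied to L6b nuclei alone. L6CT nuclei were all kept, although 5.86% of them were over 20000 UMIs. Inpp4b was among the 11, at -0.65. All 38 had a higher mean in L6CT and all 11 a higher mean in L6b over WT libraries, which enter both values.

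Without the L6b nuclei over 20000 UMIs, 12 genes were called by the interaction test, 9 of them among the 49. When L6b nuclei under 5 Inpp4b UMIs were left out too, 12 were called and 4 of those were among the 49. Fbxl7 and Trabd2b were among the genes called in all 3 fits. On the scale of that joint fit, Trabd2b stood in L6b at 192, 221, 37.3 and 155 CPM in WT and 94.6, 92.6, 33.6 and 53.9 CPM in Chd8het. L6CT had 93.7 to 137 CPM over the 8 libraries for Trabd2b. The Trabd2b term was -1.17 (SE 0.22, adjusted p = 0.000148) over all L6b nuclei and -1.47 without those over 20000 UMIs.

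Fbxl7 had 458, 561, 364 and 679 CPM in WT L6b and 334, 641, 360 and 253 CPM in Chd8het L6b, so the genotypes overlapped there. In L6CT it had 10.6 to 16.7 CPM in WT and 15.2 to 28.2 CPM in Chd8het, the highest in Chd8het male 2. That library was also the highest in L6CT for the 6 chromosome 8 RNAs, with C130073E24Rik at 23.2 CPM, but not for Svil, Lpar1 or Adgrg6. The Fbxl7 interaction was called in each of the 8 fits that left out 1 library. The Fbxl7 term was -1.02 (SE 0.18, adjusted p = 7.04e-05), with -0.41 in L6b and 0.58 in L6CT, neither called alone.

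Several interaction calls rested on few molecules or nuclei. Mecom had 0 UMIs in WT and 31 in Chd8het L6b nuclei, 96.8% of them in 3 nuclei. Dach1 had 2 UMIs in WT and 96 in Chd8het, and Chd8het male 2 alone stood at 148 CPM against at most 10.1 CPM in any other library. Pld5 had 9 UMIs in WT and 83 in Chd8het, with Chd8het male 2 at 85.8 and Chd8het female 2 at 60.2 CPM and both single-indexed Chd8het libraries at or below 8.35 CPM.

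Sex was called for 5 of 5364 genes in L6b (0.0932%), all of them on the sex chromosomes, which checks the labels. Xist and Tsix were higher in females (0.0373%), with 312 to 429 Xist UMIs in each female library and at most 1 in each male library. Uty, Eif2s3y and Kdm5d were lower (0.0559%), with 0 UMIs in every female library. Index type was called for 78 of 5920 genes (1.32%), 55 of them higher (0.929%) and 23 lower (0.389%) in dual-indexed libraries. Without Chd8het male 1 it was called for 2 genes and without WT male 1 for 8.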

How the data were processed

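The members and gene lists were chosen with earlier results of these data known. The authors deposited raw UMI counts per gene and barcode, 1 matrix per library (10x 3′ chemistry, frozen nuclei, per the labels). The submitters' processing notes name STAR 2.7.9a, STARsolo, Cell Ranger and mm10 without roles, and whether counting used strand is not given in the sources used here. Of 32285 gene identifiers, 32158 matched GENCODE M21, which gave the GRCm38 coordinates.

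From these counts, nuclei were kept and chosen as stated above, UMIs were summed per library, and sums were tested with edgeR 4.0.16 (R 4.3.3, limma 3.58.1; TMM scaling, filterByExpr with a minimum count of 10, quasi-likelihood F test, Benjamini-Hochberg), with sex and genotype, or with the library as a block between cell types. The 13 genes of the rules stayed out of the comparison of types. Doublets were predicted with Scrublet (scanpy 1.11.5) and kept. Shares were tested by exact permutation (scipy 1.17.1). Alternatives included DESeq2 1.42.0, the replicate block and other limits of the rule. The alternatives leaving out nuclei over 20000 UMIs or under 5 Inpp4b UMIs were chosen after seeing the data. They left out L6b nuclei only, and the L6CT nuclei and the count of kept nuclei stayed the same.

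Named genes were Chd8, every gene called by genotype (without block, with block or with index type), up to 8 higher and 8 lower genes of smallest p with the same sign in 4 of 4 pairs and at least 20 CPM, up to 12 genes of largest fold per direction between cell types, every interaction call, and list members. The labels state matched pairs without saying which libraries form them. Same sex and number were taken as pairs, and their deviations correlated at 0.263, 0.270, 0.179 and 0.214 over 5364 genes. Other combinations of a WT and a Chd8het library ranged from -0.214 to 0.0978. Libraries of an assumed pair also share sex and index type, so these values cannot show that they are litter mates. Tested on simulated counts of the 5364 genes, the genotype fit recovered 11.8% of 1.5-fold, 44.4% of 2-fold and 95.0% of 4-fold changes, with 6 false calls. The simulated counts had no pairs, no index type and no single nuclei rich in a gene, so these rates need not hold for the real libraries. Intervals cover counting error only. A few genes are not reported here.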

Additional observations from a re-analysis of the deposited data

Results flagged for a closer look

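In L6b nuclei of WT, Tafa1 stood at 272 CPM in male 2 and between 59.0 and 93.3 CPM in the other 3 libraries. Gm49878 stood at 68.4 CPM in WT female 2 and between 43.4 and 47.2 CPM in the other 3. Both samples lay far from the rest of their group by Dixon's test, among 62 groups tested, where chance alone marks about 1 in 20.

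The genotype difference in L6b departed from that in L6CT for 49 genes by the interaction test, with the limit on its p-values given above. Among the genes named by the rule for the genotype comparison, the departures that were more positive in L6b were 2.82 for Pld5, 2.14 for Meis2, 1.95 for Nell1, 1.87 for Tafa1, 1.74 for Ptprk, 1.69 for Arhgap10, 1.54 for Fstl4, 1.53 for Slc9a9, 1.46 for Kctd16, 1.38 for Dgkb, 1.32 for Slit3, 1.22 for Lingo2, 1.19 for Edil3, 1.07 for Dab1, 1.06 for Unc5d, 0.91 for Lrrc4c and 0.76 for Kcnq5, all in log2. The more negative ones were -2.11 for Synpr, -1.17 for Trabd2b, -0.77 for Sdk1 and -0.65 for Inpp4b. Of these 21 genes, Meis2, Synpr, Pld5 and Trabd2b were still called without L6b nuclei over 20000 UMIs and the others were not. All L6CT nuclei were kept in that fit. Kctd16 then stood at 0.14, Kcnq5 at 0.24, Slit3 at 0.45, Unc5d at 0.51, Arhgap10 at 0.63, Dgkb at 0.72, Fstl4 at 0.86 and Tafa1 at 0.88. When nuclei under 5 Inpp4b UMIs were left out too, Trabd2b alone of the 21 was called, Synpr stood at -0.08, and Kcnq5 changed sign to -0.22. Of other genes among the 49, Clstn2 was at 0.73, Fbxl7 at -1.02 and Galnt14 at -0.72, and Mecom and Dach1, which had at most 2 UMIs in WT L6b nuclei, were more positive in L6b. Of the 49 genes, 21 were called in every fit that left out 1 of the 8 libraries, and 15 by DESeq2. In L6CT nuclei alone, 0 of 14930 genes were called between genotypes, so the absence of calls there is not particular to the 49. Mecom was not tested there.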

How the results depend on the processing

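The share differences between genotypes changed sign under several alternatives. Chd8het minus WT in percentage points of kept nuclei was 0.000406. It was -0.0114 with mitochondrial UMIs up to 5%, -0.00353 with at least 5 UMIs of the 4 genes, -0.00520 without predicted doublets, -0.0345 after thinning, 0.0523 with at least 2 UMIs of the 4 genes, -0.00851 without nuclei over 20000 UMIs and -0.00306 without those or nuclei under 5 Inpp4b UMIs. As a share of L6b plus L6CT nuclei (0.0803) it was -0.00342, -0.0386, -0.572 and -0.0266 with at least 5 UMIs, without doublets, after thinning and without nuclei over 20000 UMIs, and 0.672 with at least 2 UMIs. The difference in median UMIs (46.6) was -117 with at least 1000 genes, -243 and 1242.5 with at least 2 and at least 5 UMIs of the 4 genes and -21.0 without nuclei over 20000 UMIs. Leaving out 1 library at a time gave -0.0499 to 0.0387, -0.719 to 0.561 and -811.5 to 852 for the 3 measures.

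Genotype calls in L6b, 5 in all, numbered 42 without a count filter, 23 with the replicate block, 15 with index type, 10 with DESeq2 and the block, 10 without nuclei under 5 Inpp4b UMIs and 1 (Ttn, lower) with at least 2 UMIs of the 4 genes. They numbered 0 with at least 5 such UMIs (98 genes at an unadjusted p under 0.05), 0 after thinning (1 gene) and 0 without nuclei over 20000 UMIs, with the block too, or without those and nuclei under 5 Inpp4b UMIs (121 genes). Leaving out 1 library gave 1 to 8. Interaction calls (49) numbered 15 with DESeq2 and 0 after thinning (301 genes at an unadjusted p under 0.05). They numbered 39 to 55 with 1 library left out. They were 80 without L6b nuclei under 5 Inpp4b UMIs, 12 without L6b nuclei over 20000 UMIs and 12 without both. Calls by sex (5) numbered 19 and by index type (78) 271 without a count filter. With 1 library left out, sex gave 5 throughout, index type 2 to 95 and the comparison with L6CT 2137 to 2342, which numbered 1745 to 2636 under the other alternatives. The cause of these changes was not tested.

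Of 605 values of genes named by genotype under alternatives, 500 kept their sign and side of the threshold, 40 lost and 60 gained a call, and 5 changed sign. These were Chd8 at -0.0421 without nuclei over 20000 UMIs, -0.0669 with the block as well, -0.122 without nuclei under 5 Inpp4b UMIs too and -0.0550 without Chd8het male 2 (highest with 1 library left out, 0.127), and Cntnap5a at -0.00109 without nuclei over 20000 UMIs with the block. Each library held 23 to 49 L6b nuclei, and in simulated counts the genotype fit recovered 11.8% of 1.5-fold changes.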
